A study of Mus musculus with 12 samples.

Results

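Gtf3c4 encodes a subunit of TFIIIC, the protein complex that brings RNA polymerase III to tRNA genes. Its transcript was followed in the brains of Slc6a20a mutant mice together with the transcripts of the other TFIIIC subunits (Gtf3c1, Gtf3c2, Gtf3c3, Gtf3c5 and Gtf3c6), of Brf1, Brf2 and Bdp1, which are components of TFIIIB, and of Maf1, a repressor of the polymerase. These 10 genes were taken by symbol from a table of 19775 genes. All 10 were found, and all 10 averaged 10 normalized counts or more over the mice of each comparison, the filter for testing. Gtf3c4 was chosen by its high level in homozygous mutants relative to wild-type mice, so its values in that contrast are a description, and its fitted p there restates the choice and supports nothing. The other 9 genes were listed for what they do. The question addressed is whether Gtf3c4 changed alone among the factors of this polymerase.

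The mice were untreated C57BL/6N males at about postnatal day 120, and each library came from the whole brain of 1 mouse. There were 4 wild-type (WT), 4 heterozygous (Slc6a20a+/-, HT) and 4 homozygous (Slc6a20a-/-, HM) mice, the offspring of heterozygous parents, and the mutant allele lacks exon 3 of Slc6a20a, a proline and glycine transporter gene. The deletion was not limited to a cell type by any label or method given. For Slc6a20a itself, WT mice had 584.1 to 750.5, HT mice 310.3 to 371.8 and HM mice 55.61 to 76.46 normalized counts, with no overlap between genotypes. Because whole brains were pooled over all their cells, a change in the share of a cell type and a change of RNA per cell cannot be told apart.

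RNA polymerase III makes short untranslated RNAs such as tRNAs. At tRNA genes, TFIIIC binds promoter elements inside the transcribed region, one of its lobes on the A box and the other on the B box. TFIIIC then places TFIIIB, built from Brf1, Bdp1 and the TATA-binding protein, upstream of the start, and TFIIIB recruits the polymerase. Brf2 takes the place of Brf1 at promoters that lie wholly upstream of the gene, and Maf1 holds the polymerase back when nutrients are short.

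Gtf3c4 (ENSMUSG00000035666) occupies chromosome 2 from 28822299 to 28840360 on the minus strand of GRCm38. Its start lies head to head with that of Ddx31, which encodes a DEAD-box helicase and begins on the plus strand at 28840406. Only 45 bases separate both genes, and they are shown because any promoter element there would adjoin both transcripts. The stretch is chr2:28840361-28840405, read on the minus strand (toward Gtf3c4) from the RefSeq promoter table of GRCm38.p6.
Ddx31 side to Gtf3c4 side: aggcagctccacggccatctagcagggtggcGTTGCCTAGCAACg
The capitals mark an imperfect inverted repeat of 13 bases, 14 to 2 bases before the start of Gtf3c4, which was picked after the sequence was seen. It resembles an X-box, the element to which RFX factors bind. On either strand, GTTGCCTAGCAAC occurred in 18 of 32851 RefSeq promoter windows (0.0548%), each running from 250 bases before to 50 bases from the start. Of the 7 members with such a window (Brf1, Brf2 and Maf1 had none), only Gtf3c4, from whose sequence the string was taken, held it. TATAAA was present in 13.6% of all windows and in that of 1 member (Gtf3c6), CCAAT in 37.4% and in 2 members (Gtf3c1 and Gtf3c5), and CCGGAAG in 8.86% and in 4 members (Bdp1, Gtf3c1, Gtf3c2 and Gtf3c6). None of these 3 letter strings, searched on both strands, occurred in the window of Gtf3c4.

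Gtf3c4 was chosen as a gene with a higher level in HM than in WT mice. Its level was 1364, 1368, 1411 and 1438 normalized counts in the WT mice, with a mean of 1395 ± 35.6 (SD, n = 4). In the HM mice it was 1885, 1780, 1881 and 1901 normalized counts, with a mean of 1862 ± 55.2 (SD, n = 4). The lowest HM mouse thus lay far above the highest WT mouse, and the difference of the means was 33.4% of the WT mean. On the log2(normalized count + 1) scale the difference was 0.42 with a standard error (SE) of 0.04. Of the 18004 genes compared, 2 were called at a BH-adjusted p under 0.05 (limma), 0.0111% of them, namely Slc6a20a and Gtf3c4. As values on either side of that threshold, Gtf3c4 had a BH-adjusted p of 0.00446 and the next gene, Gm47173, 0.173 (limma). These describe how Gtf3c4 came to be chosen and are no test of it. Of all 18004 genes, 354 had a log2 fold change at least as high as that of Gtf3c4, itself included. Of 6628 abundant genes, those averaging 1000 normalized counts or more, 3 did: Gtf3c4, Cdc73 (0.43, SE 0.09) and Gm47283 (0.83, SE 0.35).

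Among the HT mice, Gtf3c4 was spread more widely. They had 1465, 1521, 1447 and 1845 normalized counts, with a mean of 1570 ± 186 (SD, n = 4). HT replicate 4 was within the range of the HM mice, and the other HT mice were just above the WT range. The lowest HT mouse exceeded the highest WT mouse narrowly, 1447 against 1438. The log2 fold change of HT against WT was 0.16, with a 95% interval from 0.01 to 0.31 and a BH-adjusted p of 0.77 over all genes (limma). All 4 HT mice were above all 4 WT mice (exact permutation p = 0.0286), an arrangement found in 1.82% of all genes. Without HT replicate 4, the log2 fold change was 0.08 (limma, BH-adjusted p = 0.96). Against HT mice, HM mice were higher by 0.25 on the log2 scale (95% interval 0.10 to 0.40), and both genotypes overlapped through HT replicate 4. This comparison shares the HM mice that chose the gene, and the one with HT shares its WT mice. In HM against HT, 1 of 17986 genes was called (0.00556%, limma), and it was Slc6a20a.

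**Figure D1:**
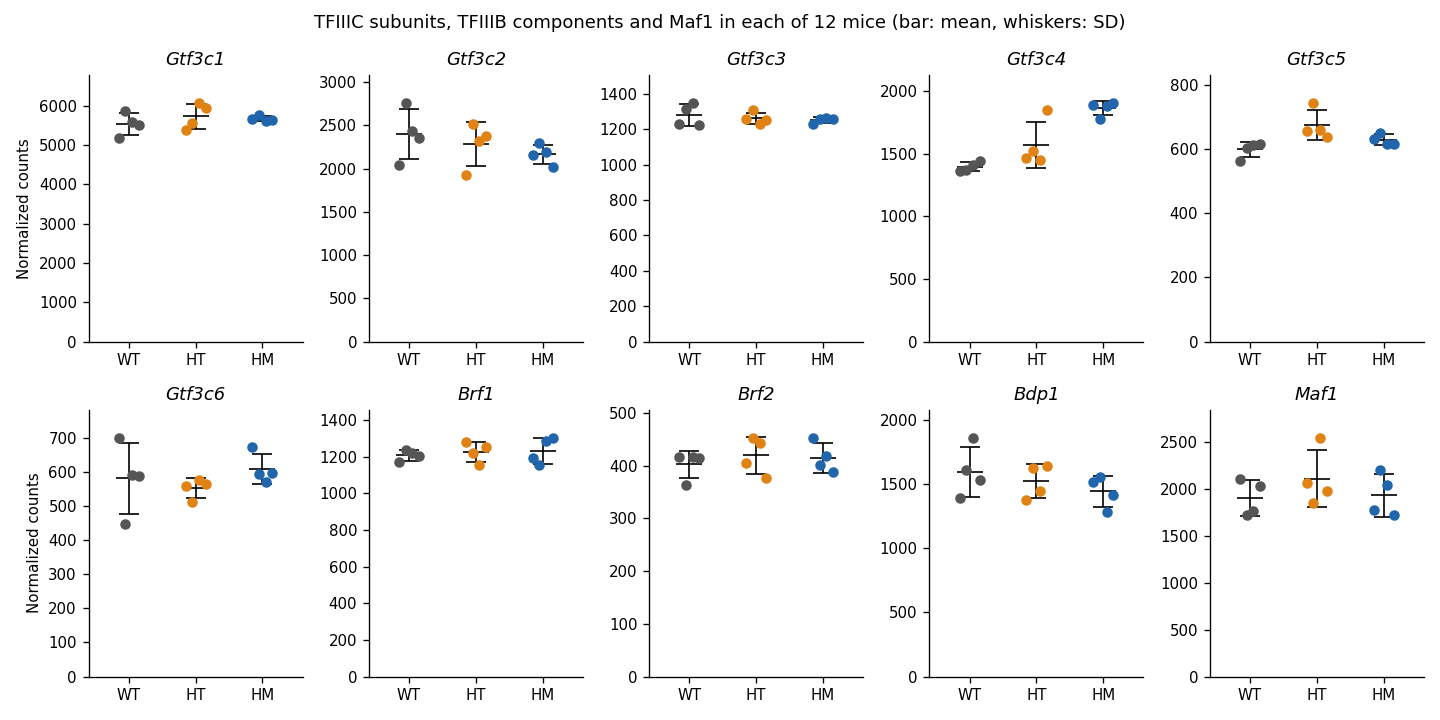
Normalized counts (y axis, from 0) of each of the 10 genes in the 4 WT, 4 HT and 4 HM mice, 1 point per mouse, with the mean as a bar and the SD as whiskers. The HM mice are clear of the WT mice for Gtf3c4 (1780 or more against 1438 or less), HT replicate 4 has 1845, and the HM and WT points of the other 9 genes overlap.

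The column names of the table carry an animal number whose first digits some mice share. What the number marks is not stated. HM replicate 3 and WT replicate 1 share one such start, and Gtf3c4 differed between them by 0.46 on the log2 scale. HM replicate 4 and WT replicate 2 share another, with a difference of 0.47. HM replicates 1 and 2 have a start that no WT mouse has, and WT replicates 3 and 4 one that no HM mouse has. For these mice, genotype and start cannot be told apart. With the starts as a block, the fit rested on the matched pairs, and Gtf3c4 in HM against WT had a BH-adjusted p of 0.149 (limma, log2 fold change 0.47). The replicate number as a block gave 0.0681 and a variance prior without a trend 0.114 (limma, log2 fold change 0.42 in each). The call was lost in each of these fits.

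The other subunits of the lobe that contacts the B box, where Gtf3c4 also sits, were not called. Gtf3c1, the largest subunit, had 5167, 5875, 5587 and 5510 normalized counts in the 4 WT mice. The HM mice had 5671, 5761, 5623 and 5626. All 4 HM values lay inside the WT range. The log2 fold change was 0.04 (95% interval -0.05 to 0.13, limma, BH-adjusted p = 0.885). Gtf3c2, which lies beside Gtf3c1 in this lobe, had 2046, 2754, 2436 and 2353 normalized counts in WT mice. In the HM mice it had 2155, 2292, 2194 and 2017. The WT mice spread more widely than the HM mice, and both overlapped. Its log2 fold change was -0.14, the opposite sign to that of Gtf3c4 (95% interval -0.30 to 0.02, limma, BH-adjusted p = 0.743).

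Gtf3c3, Gtf3c5 and Gtf3c6 form the lobe on the A box. Gtf3c3, a scaffold that reaches toward TFIIIB, was among the steadiest members, with WT mice at 1231, 1317, 1346 and 1223 and HM mice at 1231, 1260, 1261 and 1257 normalized counts. The genotypes overlapped, with a log2 fold change of -0.03 (95% interval -0.14 to 0.08). Gtf3c6, the smallest subunit, ranged from 446.2 to 699 normalized counts among WT mice alone, and from 570.7 to 673 among HM mice. With this spread, its log2 fold change of 0.08 had the widest interval of the members, -0.16 to 0.33. BH-adjusted p was 0.93 for Gtf3c3 and 0.91 for Gtf3c6 (limma).

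Gtf3c5 (ENSMUSG00000026816), whose protein contacts the A box, is also a neighbour of Gtf3c4 on the same strand of chromosome 2, from 28566311 to 28583751, a gap of 238.5 kb. No other pair of members shares a chromosome. It had 563.5, 602.3, 610.9 and 615.4 normalized counts in WT mice. HT mice had 655.5, 741.3, 658 and 636.4, and HM mice had 632.1, 649.8, 615.7 and 614.5. Every HT mouse was above every WT mouse (exact permutation p = 0.0286), while the lowest HM mouse fell inside the WT range. The HT log2 fold change was 0.17 (95% interval 0.03 to 0.31, limma, BH-adjusted p = 0.77). The HM value was 0.07 (95% interval -0.06 to 0.20, limma, BH-adjusted p = 0.831). Gtf3c4 and Gtf3c5 were the 2 of 10 members whose HT mice all exceeded the WT mice, against 1.82% of all genes, and neither passed the adjusted threshold. Their order among the HT mice differed in part. HT replicate 4, the highest HT mouse for Gtf3c4, was the lowest for Gtf3c5, though still above the WT mice. HT replicate 2 was the highest for Gtf3c5 and the next highest for Gtf3c4.

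TFIIIB components overlapped between genotypes throughout. Brf1, which links TFIIIC to the polymerase, spanned 1171 to 1239 normalized counts among WT, 1153 to 1282 among HT and 1153 to 1301 among HM mice. Brf1 had a log2 fold change of 0.03 in HM (95% interval -0.09 to 0.14) and 0.02 in HT mice (-0.09 to 0.13). Brf2, its relative for upstream promoters, averaged 402.9 ± 25.9 normalized counts among WT, 419.4 ± 35.1 among HT and 414.6 ± 28 among HM mice (SD, n = 4 each). The log2 fold change of Brf2 in HM mice was 0.04 (95% interval -0.13 to 0.21). Bdp1, the component that locks TFIIIB onto DNA, had 1392, 1610, 1858 and 1531 normalized counts in the WT mice. The values in HM mice were 1518, 1556, 1285 and 1412, which overlapped. Its log2 fold change was -0.14, with an interval from -0.32 to 0.04 that includes 0 (limma, BH-adjusted p = 0.759).

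Maf1, the repressor, varied most among HT mice, which had 2066, 1854, 2543 and 1983 normalized counts. The WT mice had 2108, 1722, 1770 and 2037 normalized counts, and the HM mice 1773, 2206, 2040 and 1720. All genotypes overlapped. Maf1 had a log2 fold change of 0.02 in HM (95% interval -0.17 to 0.20) and 0.14 in HT mice (-0.06 to 0.34), with BH-adjusted p of 0.981 and 0.845 (limma).

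Across the 9 members other than Gtf3c4, 6 had a positive and 3 a negative log2 fold change in HM against WT, with a median of 0.03 and a range from -0.14 to 0.08. None was called (limma, BH), and none had an unadjusted p under 0.05, which 6.99% of all genes had. The 95% intervals of 8 of the 9 ended below that of Gtf3c4, which began at 0.32, and that of Gtf3c6 reached 0.33 and overlapped it. Since Gtf3c4 was chosen on this contrast, setting the intervals side by side is no test of a difference between the genes. Smaller changes of the 9 lie within their intervals. In HT against WT, where 1 of 18004 genes was called (0.00555%, limma) and it was Slc6a20a, 0 of the 9 were called and 1 (Gtf3c5) had an unadjusted p under 0.05. Their log2 fold changes in HT mice ran from -0.07 to 0.17. In HM mice, 1 of 10 members (Gtf3c4) had all mice above the WT mice, and 2.41% of all genes did. That count uses the contrast that chose Gtf3c4.

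**Figure D2:**
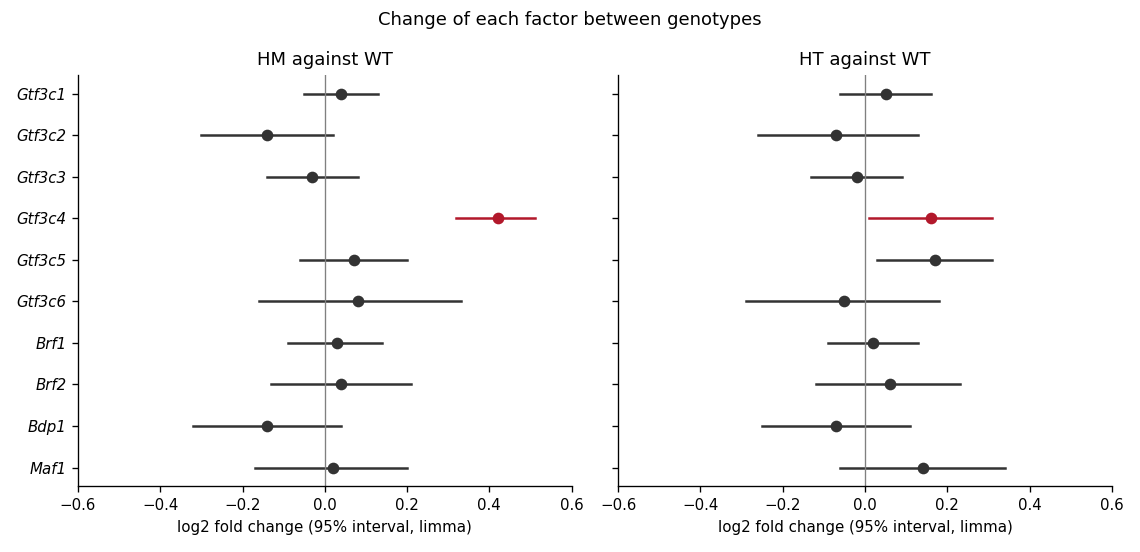
Log2 fold change (x axis, log2(normalized count + 1) scale) of the 10 genes in HM against WT (left) and HT against WT (right), as points with 95% intervals from limma. In HM mice the interval of Gtf3c4 (red), 0.32 to 0.51, lies to the right of 0, and the other 9 intervals include 0. In HT mice the intervals of Gtf3c4 and Gtf3c5 lie just to the right of 0.

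Set against the other TFIIIC subunits in the same mouse, Gtf3c4 shifted between genotypes. The mean log2 level of the other 5 subunits was 10.47 ± 0.03 for WT, 10.49 ± 0.05 for HT and 10.48 ± 0.03 for HM mice (SD, n = 4 each). Log2 Gtf3c4 minus that mean was -0.02, -0.05, -0.05 and 0.02 in the WT mice. It was 0.10, 0.05, -0.01 and 0.35 in the HT mice, and 0.38, 0.29, 0.42 and 0.45 in the HM mice. The WT and HM mice were apart, and HT replicate 4 stood among the HM mice while the other HT mice were at or near the WT values. These differences follow from the choice of Gtf3c4 and were not tested.

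**Figure D3:**
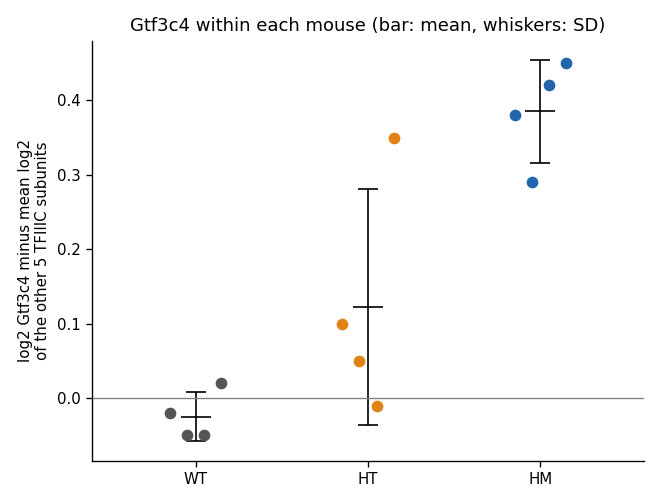
Log2 level of Gtf3c4 minus the mean log2 level of the other 5 TFIIIC subunits (y axis) in each of the 12 mice, grouped by genotype, with the mean as a bar and the SD as whiskers. The WT mice sit between -0.05 and 0.02, the HM mice between 0.29 and 0.45, and the HT mice between -0.01 and 0.35.

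Per kilobase of transcript, Gtf3c4 was one of the scarcer members. In WT mice, Maf1 was the most abundant at 1100 ± 110 normalized counts per kilobase, followed by Gtf3c1 at 795 ± 41.8, Gtf3c2 at 527 ± 63.9 and Brf1 at 462 ± 11 (SD, n = 4 each). Gtf3c3 had 279 ± 13.5, Gtf3c6 230 ± 41, Gtf3c5 218 ± 8.63 and Brf2 212 ± 13.7. Gtf3c4 had 196 ± 5 and Bdp1 161 ± 19.7 normalized counts per kilobase. Gtf3c2 overlapped with Brf1, and each member from Gtf3c3 to Brf2 overlapped with the next in this order, so their order is not resolved by 4 mice. In HM mice Gtf3c4 had 261 ± 7.74 normalized counts per kilobase, which moved it from place 9 of 10 to place 6. These levels depend on the transcript length used (7127 bases for Gtf3c4), and over the union of all exons Gtf3c4 took place 6 already in WT mice.

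The wider polymerase III machinery held no called gene in HM against WT mice. Of the 18 subunits of the polymerase, including those shared with polymerases I and II, 0 were called (limma, BH), 7 were higher and 11 lower in HM than in WT mice, and the median log2 fold change was -0.03, where that of all genes was -0.00029. The highest was Polr3g, the alternative to Polr3gl, with WT mice at 149.5 ± 17.7 and HM mice at 167.1 ± 26.1 normalized counts (SD, n = 4 each), a log2 fold change of 0.16 (SE 0.13). The lowest was Polr2f, a shared subunit, at -0.20 (SE 0.09). Polr2f and Polr1c were the 2 subunits with an unadjusted p under 0.05 in HM mice, both lower. In HT mice, Polr3g was higher by 0.27 (SE 0.12) and Polr3e lower by -0.15 on the log2 scale (SE 0.06), each with a BH-adjusted p of 0.77 (limma).

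Among 11 other factors of this polymerase (the TATA-binding protein gene Tbp, Gtf3a, the Snapc genes, Zfp143, Pou2f1, Ssb and Larp7), 0 were called and 0 had an unadjusted p under 0.05 in HM mice (limma). Their log2 fold changes ran from -0.09 for Zfp143 to 0.19 for Pou2f1, which encodes an octamer-binding activator. Of 20 genes for tRNA maturation and export, 0 were called, 13 were lower and 7 higher in HM mice, and the median log2 fold change was -0.03. Rpp40, a protein of the ribonuclease that trims tRNA 5′ ends, had the lowest value at -0.30 (SE 0.15), and Xpot, the tRNA exportin, the highest at 0.20 (SE 0.09). Pop5 and Rpp14 of the same ribonuclease were lower at an unadjusted p under 0.05, each by -0.22 on the log2 scale. Over these lists and the polymerase III transcripts, 50 genes were tested, of which 0 were higher and 4 lower at an unadjusted p under 0.05 in HM mice, near the 6.99% of all genes in either direction. Of the 50, 0 had a log2 fold change in HM against WT as high as that of Gtf3c4, which was chosen on this contrast. In HT against WT, 2 of the 50 were at or above Gtf3c4 (0.16): Xpot at 0.29 (SE 0.10) and Polr3g at 0.27 (SE 0.12). In HM against HT, 2 of the 50 were at or above it. In both comparisons 0 of the 50 were called (limma, BH).

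The products of the polymerase were hardly measured, since the libraries were made from poly-A RNA. Of 6 polymerase III transcripts looked for, Rmrp and Rpph1 were in the table, and only Rmrp passed the filter. Rmrp, the RNA of a ribonuclease for mitochondrial and ribosomal RNA, averaged 17.51 ± 5.76 normalized counts among WT, 10.4 ± 7.49 among HT and 14.55 ± 2.14 among HM mice (SD, n = 4 each). Rmrp differed from WT on the log2 scale by -0.20 in HM (SE 0.30) and by -1.25 in HT mice (SE 0.73). At such counts no difference in Rmrp was detectable, and the HT interval ran from -2.83 to 0.33.

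General factors of the other polymerases were set beside these for comparison. Of 17 general factors of polymerase II, 0 were called and 0 had an unadjusted p under 0.05 in HM mice (limma), and their log2 fold changes lay between -0.10 (Gtf2h3) and 0.12 (Gtf2e2). Of 10 polymerase I factors, 0 were called and 8 were lower in HM mice, with a median of -0.06 on the log2 scale. They ran from -0.17 for Taf1d (SE 0.06) to 0.05 for Taf1c (SE 0.07).

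**Figure D4:**
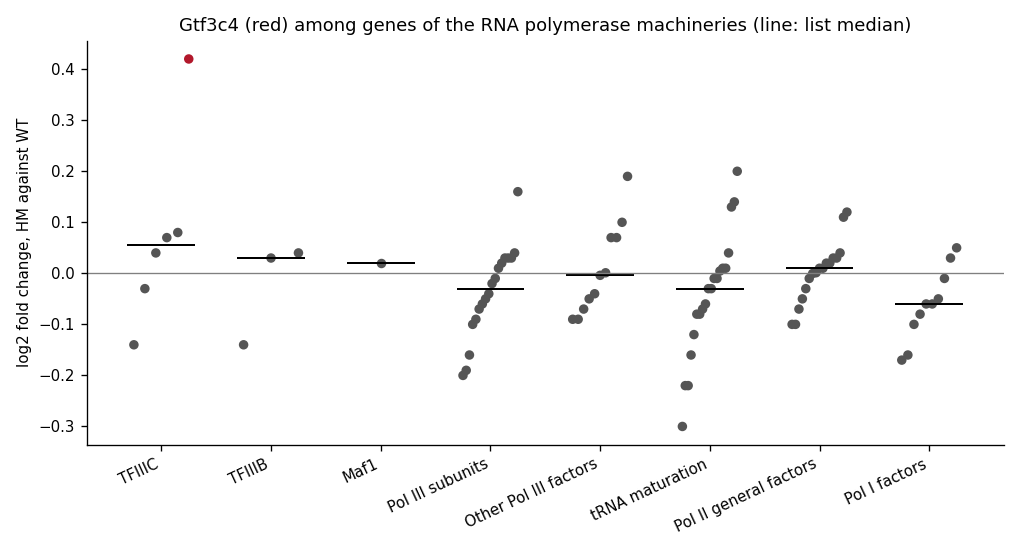
Log2 fold change of HM against WT (y axis) for each tested gene of 8 lists, 1 point per gene, with the median of each list as a line. Gtf3c4 (red) has 0.42, and the other points lie between -0.30 and 0.20.

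Ddx31, across the 45 bases printed above, was the neighbour of Gtf3c4 with the closest start. It had 174.7, 180.3, 183.3 and 179.6 normalized counts in WT mice. HM mice had 211.5, 181.9, 213.8 and 263.8. Of the HM mice, replicate 2 lay inside the WT range and the others above it. The log2 fold change was 0.27 (95% interval 0.02 to 0.51, limma, BH-adjusted p = 0.68, unadjusted p = 0.0351). The HM mouse lowest in Ddx31, replicate 2, was also the one lowest in Gtf3c4. HT mice had 186.1, 167.9, 218 and 179.4 normalized counts of Ddx31, a log2 fold change of 0.06 (95% interval -0.16 to 0.28). HT replicate 4, at the HM level for Gtf3c4, had 179.4 normalized counts of Ddx31, inside the WT range.

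Farther away, no neighbour was called in either comparison (limma, BH). Ak8, an adenylate kinase gene, ends 9.1 kb beyond the 3′ side of Gtf3c4 and had a log2 fold change of -0.08 in HM mice (SE 0.19). Tsc1, which encodes hamartin, an inhibitor of mTOR signalling, had -0.0045 (SE 0.05). Barhl1, a homeobox gene on the side of Ddx31, had -0.03 (SE 0.24). Cfap77, a cilia gene with 15.18 ± 4.69 normalized counts in WT mice, had -0.86 (SE 0.48) and is measured too sparsely to show a difference.

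**Figure D5:**
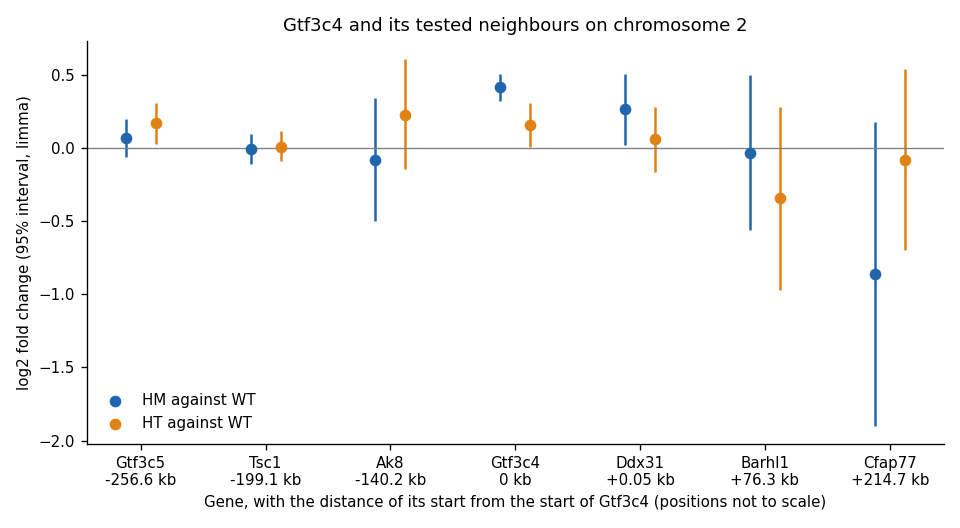
Log2 fold change (y axis) with 95% intervals from limma for Gtf3c4 and 6 tested neighbours, in HM against WT (blue) and HT against WT (orange), with the distance of each start from that of Gtf3c4 in kb on the x axis. In HM mice the intervals of Gtf3c4 (0.32 to 0.51) and Ddx31 (0.02 to 0.51) lie above 0, and those of the other 5 genes include 0.

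The genes whose pattern over the 12 mice was most like that of Gtf3c4 were no polymerase III factors. By Pearson's r between log2 values, they were Pcdhga7 (0.868), Mdga1 (0.863), Brd3 (0.86), Slfn5 (0.856) and Pcdhga4 (0.836). The Pcdhga transcripts share exons among which reads are divided, so their own levels are uncertain. Brd3, a bromodomain gene, averaged 2070 ± 39.8 normalized counts among WT, 2160 ± 124 among HT and 2280 ± 65.6 among HM mice (SD, n = 4 each). The 12 values fall into 3 genotypes, and once each gene was centred on its genotype means, 0 of these 5 were among the 5 most alike. Among the members, r with Gtf3c4 over the 12 mice ran from -0.299 for Gtf3c2 to 0.327 for Brf1. These are descriptions of 12 libraries and were not tested.

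Markers of one brain region were higher in HM mice, as Gtf3c4 was, but none was called. Of 10 olfactory bulb genes, 10 were higher in HM than in WT mice, 9 at an unadjusted p under 0.05, and 0 were called (limma, BH). Over all genes, 708 of 18004 were higher at such a p. Some of the 10 (Cdhr1, Doc2g, Eomes and Tshz1) are genes that the study picked on these mice. The summed level of the 10 spanned 4195 to 5157 normalized counts among HM and 3495 to 4041 among WT mice, and none was at 0. In HT replicate 4, the HT mouse with Gtf3c4 at the HM level, the sum was 3598, inside the WT range. Choroid plexus genes were lower in HM mice for 7 of 7, with 0 called (limma, BH) and sums of 9835 to 17896 in HM and 15240 to 19771 in WT mice. The part of such tissue in the level of Gtf3c4 was not tested. Checked against the whole-brain label, the neuron, astrocyte, oligodendrocyte and microglia genes were all present, 5 of 5 of each list. In HM against WT mice, 5 neuron, 5 astrocyte, 2 oligodendrocyte, 0 microglia, 4 of 5 erythrocyte, 1 of 7 meningeal and 2 of 2 measured pituitary genes were higher, and 0 of these were called (limma).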

How the data were processed

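RNA-seq libraries from the whole brains of 12 mice, 4 per genotype, were read from both ends. The deposited values are a normalized count signal. To obtain them, the authors estimated transcript abundance with Salmon 1.1.0 on GRCm38 with GC bias correction, summed it per gene with tximport and divided the counts by DESeq2 (1.30.1) size factors. The table held 19775 genes, of which 19758 identifiers were found in GENCODE M21. At most 20.8% of the values under 30 in any mouse were whole multiples of one step (tolerance 0.02), so no reads were recovered and no count model was fitted. The sums per mouse, 33284951 to 33748623, were already equalized, and the sequencing depth is not given by them.

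Each pair of genotypes was fitted alone by limma (version 3.58.1, R 4.3.3). Values entered as log2(normalized count + 1), the variance prior had a trend on the mean level, and genes averaging 10 or more over the 8 mice were kept. Benjamini-Hochberg (BH) adjusted p under 0.05 counted as called. The fits were also run on simulated data, and the outcome is not given here. For 4 mice against 4, the smallest two-sided p of an exact permutation test is 0.0286. Further steps used Python 3.11.15, numpy 2.4.6, scipy 1.17.1, pandas 2.3.3 and matplotlib 3.10.9. Levels per kilobase used the longest basic protein-coding transcript of GENCODE M21. Promoter windows came from RefSeq (GRCm38.p6).

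The members and lists were chosen with earlier results of these data known. Genes named were all members, Slc6a20a, the genes with the highest and the lowest log2 fold change in HM against WT in each list, the 3 nearest tested protein-coding genes on each side of Gtf3c4, and the 5 genes with the highest Pearson correlation with it. The lists covered polymerase III subunits, other polymerase III factors, tRNA maturation, polymerase III transcripts, polymerase II general factors, polymerase I factors and markers of 9 cell types or tissues. Cdc73, Gm47283, Gm47173, Ttf1 and the genes named beside counts of unadjusted p were named after their values were seen. The alternatives tried were a smaller pseudocount (0.1), a fit of unfiltered genes, a filter of 10 applied to each mouse, a joint fit of the 12 mice, blocks for the replicate or the animal number, a prior without a trend or robust, quantile normalization, and each mouse left out in turn.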

Additional observations from a re-analysis of the deposited data

Results flagged for a closer look

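Within a genotype, a mouse was picked out when its gap to the nearest of the other 3, divided by the range of the group, exceeded the 95% critical value of Dixon's test for 4 values. This was looked at for the 10 members and the neighbours of Gtf3c4, 15 genes in 45 groups, and chance alone picks about 1 in 20 groups. There were 3 such mice. HM replicate 2 was low in Gtf3c4, with 1780 normalized counts against 1881 to 1901 in the other HM mice. HM replicate 1 was low in Gtf3c3, with 1231 against 1257 to 1261, a difference of few counts among tightly grouped mice. WT replicate 2 was low in Brf2, with 364 against 414.9 to 416.3. The high Gtf3c4 of HT replicate 4 had a ratio of 0.815 and stayed under the critical value.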

How the results depend on the processing

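Of 340 values of the 10 members under the alternatives (HM or HT against WT), 321 kept direction and side of the threshold, 16 changed sign and 3 lost a call. All 3 were Gtf3c4 in HM mice, in the contrast that chose it, with a BH-adjusted p of 0.0681 with the replicate block (log2 fold change 0.42), 0.149 with the animal-number block (0.47) and 0.114 with a variance prior without a trend (0.42; limma). The other alternatives gave 0.00284 to 0.0453, and leaving out each mouse gave 0.0119 to 0.0391 (log2 fold change 0.40 to 0.44). The cause was not tested. The number of genes called in HM against WT was 1 with the replicate block and 1 without a trend, with a range of 2 to 3 when a mouse was left out. In HT against WT it was 0 without a trend (limma, with 1014 genes at an unadjusted p under 0.05) and 1 to 5 on leaving out a mouse, with 2 without WT replicate 2 and 5 without HT replicate 3. In HM against HT it was 2 without a filter, 3 with the animal-number block and 1 to 7 on leaving out a mouse, with 2 without HT replicate 2, 3 without HT replicate 3 or 4 and 7 without HM replicate 2 or 3. Against WT, none of the other 9 members was called under any of these alternatives.

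Signs changed only for log2 fold changes near 0. With the animal-number block they were -0.02 for Maf1 in HM, and 0.08 for Gtf3c6 and -0.0016 for Brf1 in HT mice. On leaving out each mouse, the ranges in HM mice were -0.04 to 0.18 for Gtf3c6, -0.01 to 0.07 for Brf2 and -0.05 to 0.07 for Maf1. In HT mice they were -0.14 to 0.01 for Gtf3c2, -0.04 to 0.01 for Gtf3c3, -0.17 to 0.04 for Gtf3c6, -0.00037 to 0.05 for Brf1 and -0.13 to 0.01 for Bdp1. Same-numbered mice deviated together little, with correlations of -0.08 to 0.10 over genes in the 3 comparisons. The WT mouse most alike had the same number for 2 of 4 HM and 2 of 4 HT mice. The HT mouse most alike had the same number for 0 of 4 HM mice. With 4 mice per genotype, these values do not settle whether the replicate number pairs mice. Count models were not run because the table holds no counts.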

Other observations

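Ttf1, which ends transcription by polymerase I, lies on the same chromosome as Gtf3c4, beyond Cfap77. Its log2 fold change of HT against WT was -0.26 (SE 0.09), with a BH-adjusted p of 0.768 (limma). All HT mice were below all WT mice, an arrangement found in 344 of 18004 genes. In HM against WT the log2 fold change of Ttf1 was -0.10 (SE 0.09), and the genotypes overlapped. Taf1d, a subunit of the polymerase I selectivity factor, averaged 804.3 ± 42.3 normalized counts among WT, 703.2 ± 98.3 among HT and 714 ± 22.3 among HM mice (SD, n = 4 each). Its HM mice were all below its WT mice, as in 326 of 18004 genes, with a BH-adjusted p of 0.655 (limma).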
